A study of Homo sapiens with 6 samples.

Results

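The genes of the MNK kinases and of the cap complex that they act on were followed through the transcriptome of MDA-MB-231, a long-established cell line from a human triple-negative breast cancer, upon treatment with the retinamide VNLG-152R. The 10 genes were taken by name from the 61552 gene identifiers of the count tables: MKNK1 and MKNK2 (the kinases), EIF4E and EIF4E2 (cap-binding proteins), EIF4G1, EIF4G2 and EIF4G3 (scaffolds), EIF4EBP1 and EIF4EBP2 (4E-BPs) and PDCD4 (an inhibitor of the helicase). The tables hold 3 libraries of cells given VNLG-152R at a dose of 10 μM and 3 of cells given the DMSO vehicle alone, all harvested at 24 h. The study asks how VNLG-152R acts on MNK1/2 protein, and the comparison here addresses whether the RNA of these genes differed too. According to the methods the treatment was done in triplicate, without word on whether these were independent experiments, and the p-values therefore reflect nothing but the spread among these libraries, possibly a technical one.

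Cap-dependent translation begins when eIF4E binds the cap at the 5′ end of an mRNA and joins the scaffold eIF4G and the helicase eIF4A, the assembly called eIF4F. MNK1 and MNK2 dock on eIF4G and phosphorylate eIF4E, and they are themselves switched on by ERK and p38 kinases. The 4E-BPs compete with eIF4G for eIF4E until mTORC1 phosphorylates them, and PDCD4 holds eIF4A away from the complex until S6 kinases mark it for destruction. Most of this control acts on proteins, which RNA counts do not measure.

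Counts assigned to genes totaled 69923839 to 82151816 with VNLG-152R and 60122936 to 68583224 in vehicle controls. Of the 7 markers fixed for MDA-MB-231 cells, all were expressed, while PTPRC, CD3E, DCN and LUM, markers of blood cells and fibroblasts, had 0 to 2 counts per library. VWF and CDH5, defining genes of endothelium, had 0 to 13 counts, and CD14 and PDGFRB had 154 to 259. Among the line's markers edgeR called 2 lower and 1 higher, beside 1.43% and 3.76% of all tested genes. VIM and CAV1, mesenchymal and caveolar genes, were those that fell, by 0.39 and 0.60 on the log2 scale (adjusted p of 0.0472 and 0.0048 from edgeR). Of the 7 markers 3 had a positive log2 fold change and 4 a negative one, over a range of -0.60 to 0.54. Summed over the 11 markers of other cell types, the level was 46.6 to 48.4 CPM with VNLG-152R and 44.4 to 47.9 CPM in controls. Most of that sum came from PECAM1, an adhesion molecule of endothelium and platelets, and COL1A1. PECAM1 had 22.8 to 26.5 CPM with VNLG-152R and 21.3 to 24.5 CPM in controls, a log2 fold change of 0.12 (adjusted p = 0.454). COL1A1, a collagen gene of fibroblasts, had 15.1 to 18.4 CPM with VNLG-152R and 16.9 to 17.8 CPM in controls, and its log2 fold change was -0.063 (adjusted p = 0.736 from edgeR). CPM, the share of a library's counts scaled up to a fixed depth and normalized between libraries by TMM, is relative to the other RNA of the library. In such bulk RNA, fewer cells carrying a transcript and less of it per cell cannot be told apart.

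PDCD4 was the single gene of the 10 that passed the test, and it rose 1.29-fold with VNLG-152R. A gene is called changed at a Benjamini-Hochberg adjusted p under 0.05 in the quasi-likelihood test of edgeR over 17084 genes, all 10 of these among them. The count was thus 1 of 10 higher, beside 3.76% of all tested genes, and 0 of 10 lower, beside 1.43%. At an unadjusted p under 0.05 there were 4 of the 10, beside 22.6% of all genes. DESeq2 called PDCD4 and also EIF4G2, which was lower, whereas limma-voom called PDCD4 alone. Over all genes with an adjusted p DESeq2 called 917 higher and 537 lower of 14391, and limma-voom 596 and 230 of 17084. In 4 genes, PDCD4, EIF4G2, EIF4G3 and EIF4EBP1, the CPM of the groups did not overlap, beside 28.5% of all tested genes. The median log2 fold change was -0.051 over the 10 genes and -0.0024 over all tested genes, and both kinases lay close to 0.

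**Figure D1:**
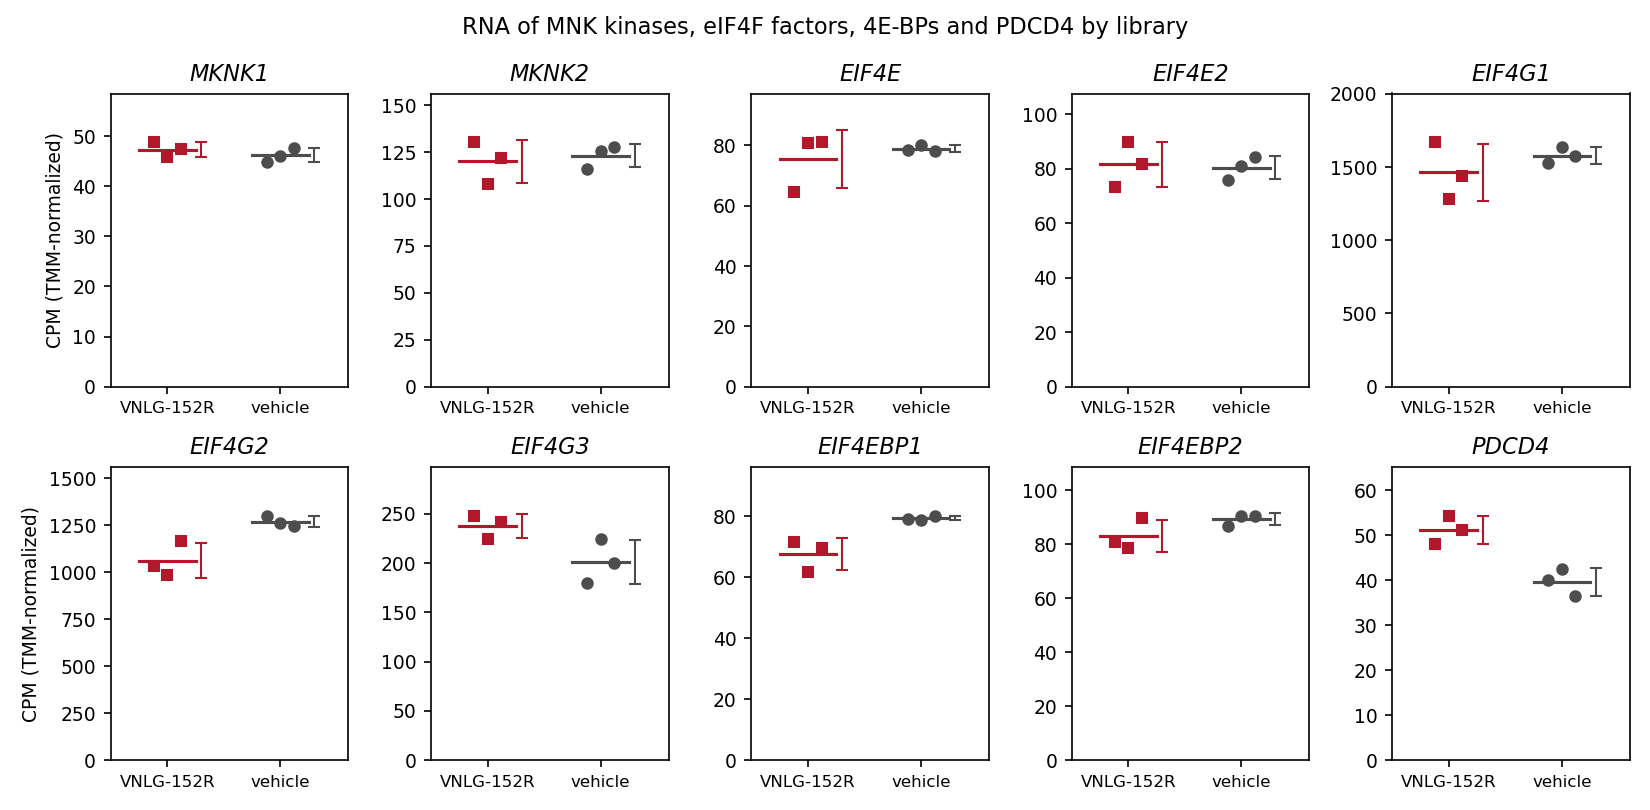
Level of each of the 10 genes by library, in TMM-normalized CPM on an axis that starts at 0 for each gene, with VNLG-152R libraries left of vehicle controls; points are libraries, and lines with bars are the mean and SD (n = 3 each). PDCD4 stands at 48.0 to 54.3 CPM with VNLG-152R and 36.4 to 42.4 CPM in controls, while MKNK1 points lie between 44.8 and 48.7 CPM in all 6 libraries.

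MKNK1 encodes MNK1, the eIF4E kinase that answers most strongly to upstream signals, and its RNA did not differ measurably. It lies on the minus strand of chromosome 1 from 46557408 to 46616843 (GRCh38). Its level was 48.7, 45.7 and 47.4 CPM with VNLG-152R and 44.8, 45.9 and 47.6 CPM in controls. The values interleave, with a VNLG-152R library at the top and a control library at the bottom. The log2 fold change was 0.036 (SE 0.08, adjusted p = 0.824 from edgeR), and the 95% interval of the fold ran from 0.910 to 1.15. MKNK2 encodes MNK2, the kinase with the higher activity in resting cells, and lies on the minus strand of chromosome 19 from 2037465 to 2051244. It had 130, 108 and 122 CPM with VNLG-152R and 116, 126 and 128 CPM in controls. The highest and the lowest of these 6 libraries were both treated ones. Its log2 fold change was -0.036 (SE 0.09, adjusted p = 0.845), with a 95% interval of the fold of 0.852 to 1.12, and it turned to 0.036 without VNLG-152R replicate 2.

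Per length, MKNK2 was the more abundant kinase RNA of this line. On the TPM scale, which divides counts by the length of the union of a gene's exons before scaling to a fixed total, MKNK2 stood at 93.1 ± 7.51 TPM with VNLG-152R and 93.7 ± 4.44 TPM in controls (SD, n = 3 each). MKNK1 stood at 23.7 ± 0.543 TPM with VNLG-152R and 22.7 ± 0.464 TPM in controls. MKNK1 thus made up 20.4 ± 1.05% of the summed kinase TPM with VNLG-152R and 19.5 ± 0.444% in controls, shares that differed by less than the SD of the treated libraries. With the length of the longest transcript in place of the union the share of MKNK1 was 32.2% with VNLG-152R and 31.1% in controls, so the balance of the kinases depends on the length chosen.

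Over the 6 libraries and among 9276 genes averaging 10 CPM or more, MKNK1 ran most like ZNF275, ZNF579 and FBXO46, with Pearson's r of log2 CPM of 0.987, 0.977 and 0.976. For MKNK2 the nearest were GIT1, PGAP2 and AP2A1, with r of 0.998, 0.995 and 0.994. Above an r of 0.95 there were 19 genes for MKNK1 and 170 for MKNK2. All these genes share the same 6 libraries and their depth, so the values are a description only.

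SYVN1, the E3 ligase of the endoplasmic reticulum that the study ties to MNK1/2, had 100.2, 71.7 and 81.0 CPM with VNLG-152R and 67.1, 79.9 and 79.3 CPM in controls. VNLG-152R replicate 1 was highest and the rest overlapped, and the log2 fold change was 0.16 (SE 0.12, adjusted p = 0.454 from edgeR). The paper states that its RNA sequencing and proteome data together showed SYVN1 to be upregulated. It shows the rise in protein, by mass spectrometry and immunoblot, whereas the values here are of RNA alone.

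EIF4E, the cap-binding protein and the substrate of both kinases, lies on the minus strand of chromosome 4 from 98871684 to 98930637. It had 64.6, 80.9 and 81.0 CPM with VNLG-152R and 78.4, 80.3 and 78.2 CPM in controls. VNLG-152R replicate 1 stood below the other 5 libraries, which lay close together, and the groups overlapped. The log2 fold change was -0.065 (SE 0.10, adjusted p = 0.734), and without that library it was 0.039. EIF4EP2, a processed pseudogene of EIF4E on chromosome 17, was counted separately at 15.7 CPM with VNLG-152R and 17.3 CPM in controls, means of 3 libraries each. Added to EIF4E, its counts gave a log2 fold change of -0.079.

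The promoter of EIF4E is shown because its E-boxes, CACGTG, are the letters bound by MYC, a transcription factor known to act on this gene. It covers chr4:98929084-98929383 on the minus strand, 250 bases before the start and 50 after it (RefSeq, GRCh38.p14), with the E-boxes in capitals.
EIF4E promoter: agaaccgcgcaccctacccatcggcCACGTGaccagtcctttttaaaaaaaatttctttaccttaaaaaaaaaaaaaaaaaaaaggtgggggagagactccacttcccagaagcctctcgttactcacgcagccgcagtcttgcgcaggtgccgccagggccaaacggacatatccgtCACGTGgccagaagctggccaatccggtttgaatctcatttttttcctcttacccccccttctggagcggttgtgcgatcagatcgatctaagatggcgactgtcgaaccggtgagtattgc
The E-boxes begin 225 and 72 bases before the start. Among 35116 promoters of this length, 7.26% hold the motif on either strand, which reads the same on both. Of the 10 genes 9 had an entry, and only EIF4E and EIF4G1 held it. MYC itself had 147, 122 and 135 CPM with VNLG-152R and 132, 150 and 138 CPM in controls. These values overlap, and the log2 fold change from edgeR was -0.058 (adjusted p = 0.746).

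EIF4E2 encodes 4EHP, which binds the cap without recruiting eIF4G and so represses its targets. It lies on the plus strand of chromosome 2 from 232550052 to 232583644, and 24.2% of its exon bases lie under antisense genes, TIGD1 among them. Its level was 73.5, 89.7 and 81.7 CPM with VNLG-152R and 76.0, 81.0 and 84.5 CPM in controls, and the treated libraries held both the lowest and the highest. The log2 fold change was 0.021 (SE 0.09, adjusted p = 0.918), and its sign turned when either VNLG-152R replicate 2 (-0.052) or control replicate 1 (-0.020) was left out. EIF4E made up 32.0 ± 1.39% of the TPM of this pair with VNLG-152R and 33.4 ± 1.22% in controls (SD, n = 3 each). The exon union spans 14067 bases for EIF4E and 7177 bases for EIF4E2, and the share depends on the length chosen. With the longest transcript the share of EIF4E was lower still, 22.0% with VNLG-152R and 23.1% in controls.

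Of the 3 scaffolds, 0 passed the threshold in edgeR, beside 5.19% of all tested genes, and 2 had an unadjusted p under 0.05, beside 22.6%. DESeq2 called 1, EIF4G2, beside 917 higher and 537 lower of 14391 genes. EIF4G1, the main scaffold that carries the docking site of the MNKs, lies on chromosome 3 from 184314495 to 184335358. It had 1669, 1283 and 1442 CPM with VNLG-152R and 1526, 1639 and 1573 CPM in controls. The treated libraries spread on both sides of the controls, and the log2 fold change was -0.11 (SE 0.10, adjusted p = 0.570).

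EIF4G2 encodes DAP5, a related scaffold that lacks the eIF4E-binding part and serves initiation that does not use eIF4E. It lies on chromosome 11 from 10797050 to 10809110. It had 1033, 984 and 1164 CPM with VNLG-152R and 1300, 1261 and 1244 CPM in controls. Every treated library was below every control, and the log2 fold change was -0.26 (SE 0.09, adjusted p = 0.118). With DESeq2 it was -0.27 (adjusted p = 0.0429) and with a correction for transcript length -0.34 (adjusted p = 0.0469).

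EIF4G3, a paralog of EIF4G1 that also binds eIF4E, lies on chromosome 1 from 20806292 to 21176888. It had 248, 224.0 and 242 CPM with VNLG-152R and 179, 223.9 and 200.2 CPM in controls. The groups just failed to touch, at VNLG-152R replicate 2 and control replicate 2. The log2 fold change was 0.24 (SE 0.09, adjusted p = 0.156), and it lay between 0.17 and 0.32 when each library was left out in turn.

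Within the scaffold family the share of EIF4G3 differed between groups without overlap. It was 7.44, 7.98 and 7.53% of the summed TPM with VNLG-152R and 5.28, 6.35 and 5.88% in controls, and no test was made of it. EIF4G2 held 37.8 ± 3.07% with VNLG-152R and 40.9 ± 1.45% in controls, and EIF4G1 held 54.5 ± 3.22% with VNLG-152R and 53.3 ± 0.925% in controls (SD, n = 3 each). By level per length the order was EIF4G1, EIF4G2 and EIF4G3 in every library.

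**Figure D2:**
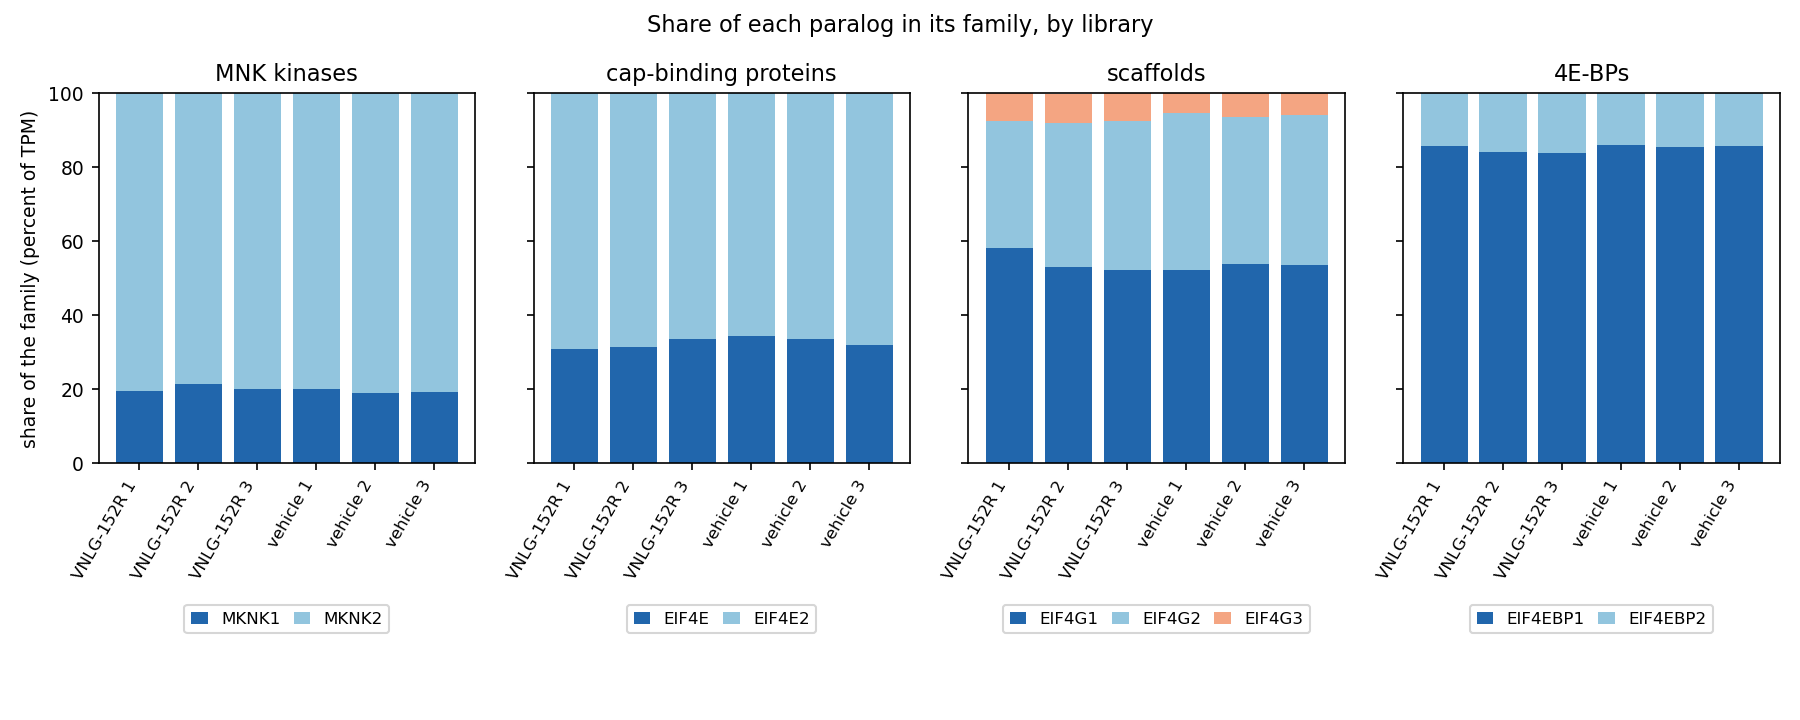
Share of each paralog in its family by library, in percent of the family's summed TPM over exon unions, with VNLG-152R libraries left of vehicle controls in each panel. MKNK1 is 19.1 to 21.5% of the kinases in all 6 libraries, and EIF4G3 is 7.44 to 7.98% of the scaffolds with VNLG-152R and 5.28 to 6.35% in controls.

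EIF4EBP1 encodes 4E-BP1, the best known of the eIF4E repressors and a target of mTORC1, and lies on chromosome 8 from 38030341 to 38060365. Its level was 71.7, 61.7 and 69.7 CPM with VNLG-152R and 79.1, 78.8 and 80.1 CPM in controls. The controls lay close together and every treated library was below them. The log2 fold change was -0.23 (SE 0.08, adjusted p = 0.134), which did not pass, and it was -0.17 without VNLG-152R replicate 2, the lowest library, and -0.15 with the length correction. EIF4EBP2, its paralog 4E-BP2, lies on chromosome 10 from 70404379 to 70428618. It had 80.6, 78.7 and 89.8 CPM with VNLG-152R and 86.6, 90.4 and 90.5 CPM in controls. VNLG-152R replicate 3 fell among the controls, and the log2 fold change was -0.10 (SE 0.08, adjusted p = 0.493).

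Per length, EIF4EBP1 was the dominant 4E-BP, with 256 ± 17.8 TPM with VNLG-152R and 294 ± 3.03 TPM in controls (SD, n = 3 each). EIF4EBP2 had 46.4 ± 4.10 TPM with VNLG-152R and 48.9 ± 1.38 TPM in controls. EIF4EBP1 held 84.6 ± 0.966% of their sum with VNLG-152R and 85.8 ± 0.293% in controls. The ratio of 4E-BP TPM to EIF4E TPM, a repressor-to-target balance at the RNA level, was 17.0, 11.9 and 13.4 with VNLG-152R and 15.4, 15.1 and 15.7 in controls. The highest and the lowest ratios were both of treated libraries, so the groups overlapped. The size of the ratio rests on the lengths used, exon unions of 1073 bases for EIF4EBP1 and 14067 bases for EIF4E. In CPM, which leaves length out, the control means were 79.3 for EIF4EBP1, 89.2 for EIF4EBP2 and 79.0 for EIF4E. With VNLG-152R they were 67.7, 83.0 and 75.5 CPM.

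**Figure D3:**
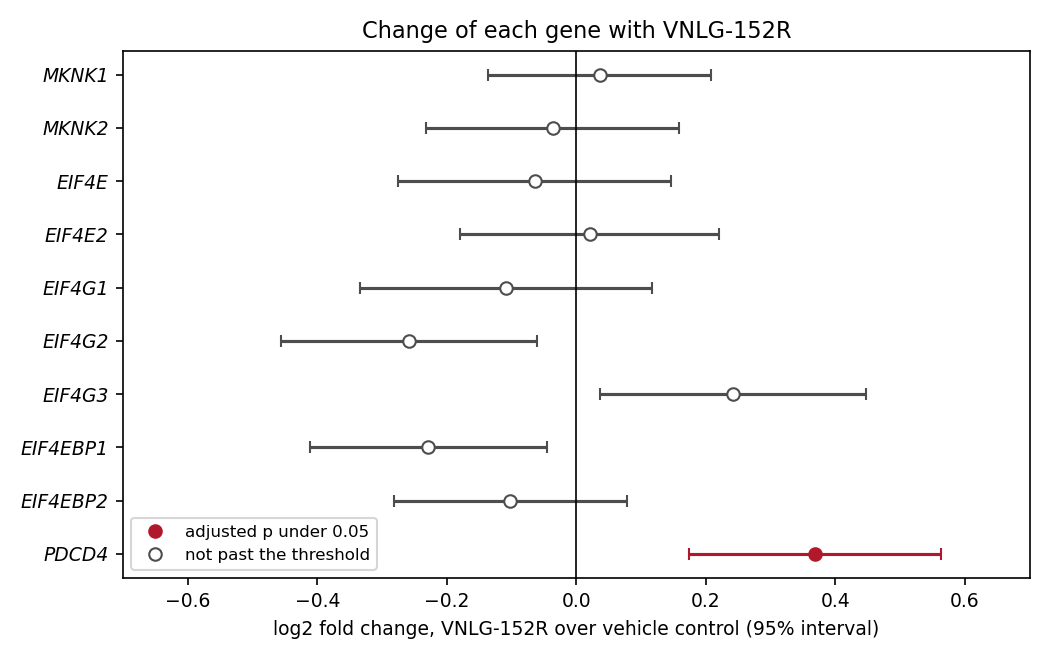
Log2 fold change of VNLG-152R over vehicle control for each of the 10 genes from edgeR, with 95% intervals. The intervals of PDCD4 (0.17 to 0.56) and EIF4G3 (0.04 to 0.45) lie above 0, those of EIF4G2 (-0.46 to -0.06) and EIF4EBP1 (-0.41 to -0.05) lie below it, and those of MKNK1 and MKNK2 span it; of these only PDCD4 passed after adjustment.

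PDCD4, programmed cell death 4, blocks the helicase eIF4A and is known as a tumor suppressor. It lies on the plus strand of chromosome 10 from 110871795 to 110900006. Its level was 48.0, 54.3 and 51.1 CPM with VNLG-152R and 40.1, 42.4 and 36.4 CPM in controls. Every treated library was above every control. The log2 fold change was 0.37 (SE 0.09, adjusted p = 0.0365 from edgeR), a 1.29-fold rise with a 95% interval of 1.13 to 1.48, and its size exceeded that of 81.8% of tested genes.

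The call of PDCD4 lay near the threshold. It was lost without VNLG-152R replicate 2 (0.32, adjusted p = 0.0907) or 3 (0.37, 0.0995), and without control replicate 1 (0.38, 0.0853), 2 (0.42, 0.0562) or 3 (0.31, 0.185). Without VNLG-152R replicate 1 it held (0.41, 0.0212). VNLG-152R replicate 2, where PDCD4 was highest, also had the most read pairs outside every annotated gene, 5.05%, against 3.36 to 3.52% in the other treated libraries and 2.63 to 3.17% in controls. The part of that share in the result was not tested beyond leaving the library out.

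Antisense genes were a further point for PDCD4, since 28.1% of its exon bases lie under BBIP1 on the opposite strand. BBIP1, a subunit of the BBSome of cilia, had 477, 841 and 727 counts with VNLG-152R and 571, 560 and 546 counts in controls. BBIP1 too was highest in VNLG-152R replicate 2, but the groups overlapped and its log2 fold change was 0.0093 (adjusted p = 0.979 from edgeR). Its level was 8.95 CPM with VNLG-152R and 8.90 CPM in controls, means of 3 libraries each. The antisense RNA PDCD4-AS1 had 16 to 47 counts in any library.

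The sequences of PDCD4 are shown because it was the called gene. Its promoter at chr10:110871678-110871977 on the plus strand (RefSeq, GRCh38.p14) is printed with the motif CCAAT, in either orientation, in capitals, beginning 100 and 73 bases before the start. The best known regulator of PDCD4 mRNA is the microRNA miR-21, printed with its seed, bases 2 to 8, in capitals. The matching stretch of the 3′ UTR of PDCD4, at chr10:110898310-110898339 on the plus strand, has the match to the seed plus the A after it in capitals.
PDCD4 promoter: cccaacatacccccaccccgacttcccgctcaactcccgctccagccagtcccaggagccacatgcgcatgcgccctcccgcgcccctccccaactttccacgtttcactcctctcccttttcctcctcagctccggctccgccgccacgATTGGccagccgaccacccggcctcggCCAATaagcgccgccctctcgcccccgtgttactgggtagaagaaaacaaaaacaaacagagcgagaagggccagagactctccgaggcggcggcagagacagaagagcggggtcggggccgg
miR-21-5p: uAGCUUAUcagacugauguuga
PDCD4 miR-21 seed match: ttcttaagtggaatattctaATAAGCTAcc
CCAAT is held by 34.6% of all 35116 promoters on either strand. The match ATAAGCTA occurred in the 3′ UTRs of 456 of 19046 genes (2.39%), regions of unequal length, and among the 10 genes only in PDCD4. The stretch lies outside the bases that PDCD4 shares with BBIP1. Libraries of polyadenylated RNA do not measure a mature microRNA, and MIR21 had 0 counts in all 6. VMP1, the gene in which MIR21 lies, was at 0.097 on the log2 scale (adjusted p = 0.608), so the data hold no value of miR-21 itself.

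PDCD4 ran most like DICER1, ATP13A3 and MMP1 over the 6 libraries, with Pearson's r of log2 CPM of 0.997, 0.995 and 0.995 among 9276 genes, of which 140 were above 0.95. MMP1, an interstitial collagenase, was itself higher with VNLG-152R (log2 fold change 0.83, adjusted p = 0.00118 from edgeR). DICER1, the microRNA-processing nuclease, and ATP13A3, a polyamine transporter, were at 0.32 and 0.31 with adjusted p of 0.0555 and 0.0572 and did not pass.

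Around these 10 genes, most of the listed partners stayed under the threshold. Of 21 other cap-complex genes 19 were tested and 0 were called by edgeR, beside 5.19% of all tested genes. At an unadjusted p under 0.05 there were 2, beside 22.6%. DESeq2 called 1 higher, beside 917 of 14391 genes, and limma-voom called 0. The median log2 fold change of the list was -0.00045. GIGYF2, the partner of 4EHP in repression, was highest relative to controls in this list after GIGYF1, with 77.6 ± 4.73 CPM with VNLG-152R and 63.0 ± 6.04 CPM in controls (SD, n = 3 each) at a log2 fold change of 0.30 (adjusted p = 0.0818). GIGYF1 was at 0.31 (adjusted p = 0.120), and PABPC1, the poly(A)-binding protein that closes the mRNA loop, at -0.14 (adjusted p = 0.428). EIF4A1, the main helicase of eIF4F, was listed at only 3.41 CPM with VNLG-152R and 2.87 CPM in controls. Since 48.6% of its exon bases are shared with genes such as the read-through SENP3-EIF4A1, that value is not read as its level.

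Upstream of the MNKs, 19 kinases, RAS proteins and phosphatase subunits were tested. By edgeR, DESeq2 or limma-voom 0 were called, beside 5.19% of all tested genes in edgeR. Their median was -0.098, and 4 had an unadjusted p under 0.05, beside 22.6% of all tested genes. HRAS, a RAS protein, was among the 4, with 2.39 ± 0.938 CPM with VNLG-152R and 4.82 ± 3.08 CPM in controls (SD, n = 3 each) and overlapping groups, and so low a count for a widely expressed gene is not read as its level. BRAF, a kinase at the head of the ERK cascade, was at 0.27 (adjusted p = 0.0929) and MAPK11, a p38 kinase, at -0.36 (adjusted p = 0.101). Among the kinases and ligases that act on the 4E-BPs and PDCD4, MTOR, the kinase of mTORC1, was at 0.15 (adjusted p = 0.470), and BTRC and FBXW11, the F-box proteins that recognize phosphorylated PDCD4, were at 0.049 (adjusted p = 0.760) and 0.041 (adjusted p = 0.802).

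The eIF3 subunits, which tie eIF4G to the small ribosomal subunit, had a negative log2 fold change in 11 of 12 tested genes, with a median of -0.14. In edgeR 0 of them were called, beside 5.19% of all tested genes, and 4 had an unadjusted p under 0.05, beside 22.6%. DESeq2 called 1 lower, beside 537 of 14391 genes, and limma-voom called 0. EIF3B was at -0.27 (adjusted p = 0.0926) and EIF3A, the exception in sign, at 0.050 (adjusted p = 0.763). Over all 17084 tested genes 8603 were negative, so about as many were negative as positive.

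Among 5 other proteins listed as MNK substrates, 1 fell and 0 rose, beside 1.43% lower and 3.76% higher of all tested genes. SPRY1, a Sprouty inhibitor of receptor tyrosine kinase signaling, had 44.5, 43.5 and 48.3 CPM with VNLG-152R and 66.5, 55.3 and 58.7 CPM in controls. All treated libraries were below all controls, and the log2 fold change was -0.41 (SE 0.09, adjusted p = 0.0272 from edgeR). The call was lost without VNLG-152R replicate 2 or 3 or control replicate 1 or 3 (adjusted p 0.0564 to 0.0986). SPRY2 was at -0.20 (adjusted p = 0.179) and HNRNPA1, an RNA-binding protein phosphorylated by MNK, at -0.090 (adjusted p = 0.549).

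Of 23 listed mRNAs known to depend on eIF4E for their translation, 20 were tested, for their RNA level and not their translation. In edgeR 1 rose and 3 fell, beside 3.76% higher and 1.43% lower of all tested genes. At an unadjusted p under 0.05 there were 10, beside 22.6%. The log2 fold change was negative in 15 of the 20, beside 8603 of all 17084 tested genes, with a median of -0.15. DESeq2 called 1 higher and 7 lower, beside 917 higher and 537 lower of 14391 genes with an adjusted p. With limma-voom it was 1 higher and 3 lower, beside 596 and 230 of 17084 genes. Without control replicate 3 edgeR called 1 higher and 0 lower, beside 220 and 44 of 17505 genes. In 12 of the 20 the groups stood apart without overlap, beside 28.5% of all tested genes. VEGFA, the angiogenic growth factor, had 779, 754 and 644 CPM with VNLG-152R and 436, 465 and 468 CPM in controls. The groups stood well apart, and the log2 fold change was 0.67 (SE 0.09, adjusted p = 0.00157), a call that held in all 15 alternatives. With the length correction the log2 fold change of VEGFA was smaller, 0.46 (adjusted p = 0.0139 from edgeR). NFKBIA, the inhibitor of NF-κB, had 104, 94.4 and 108 CPM with VNLG-152R and 145, 129 and 145 CPM in controls. It fell by 0.45 on the log2 scale (adjusted p = 0.0123), lost without control replicate 3 (adjusted p = 0.0820).

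ODC1, the first enzyme of polyamine synthesis, and BCL2L1, which encodes the anti-apoptotic protein BCL-XL, were the other genes that fell, at -0.41 (adjusted p = 0.0231 from edgeR) and -0.38 (adjusted p = 0.0423). For BCL2L1, 43% of the exon bases lie under the antisense gene ABALON. The call of ODC1 was lost without VNLG-152R replicate 2 or 3 or control replicate 1 or 3 (adjusted p 0.0614 to 0.0787). That of BCL2L1 was lost without any library except VNLG-152R replicate 1 (adjusted p 0.0687 to 0.152) and with the length correction (0.0625). CCND1, the gene of cyclin D1, had 580, 528 and 588 CPM with VNLG-152R and 659, 625 and 620 CPM in controls, without overlap. Its log2 fold change of -0.17 did not pass (adjusted p = 0.268). MCL1, a short-lived survival factor, was at -0.071 (adjusted p = 0.635).

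**Figure D4:**
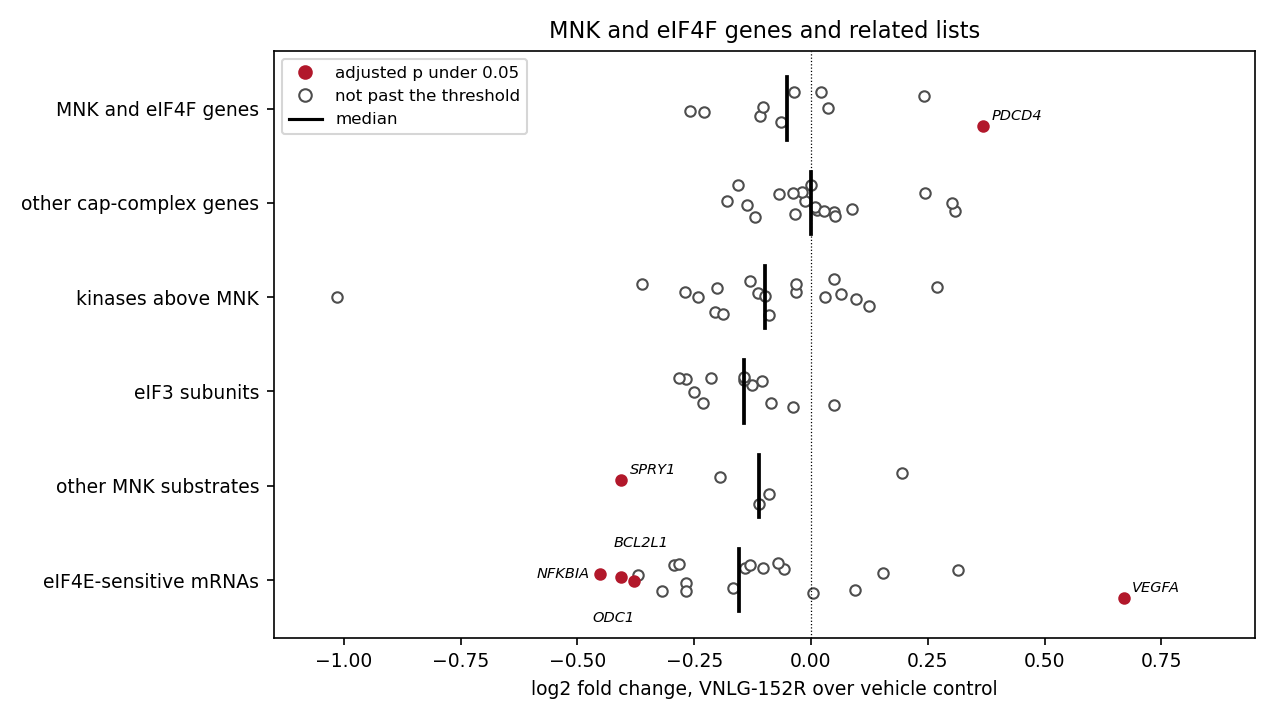
Log2 fold change of VNLG-152R over vehicle control for the tested genes of 6 lists, 1 point a gene, filled where the adjusted p from edgeR was under 0.05, with a black line at each list's median. PDCD4, SPRY1, NFKBIA, ODC1, BCL2L1 and VEGFA are the filled points, and the eIF3 points lie below 0 except EIF3A.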

How the data were processed

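Per the labels, polyadenylated RNA of 6 MDA-MB-231 samples was sequenced, and the authors deposited a table of raw counts by Ensembl gene identifier for every library. The submitters' processing notes name HISAT, HTSeq, DESeq and GRCh38. Versions, annotation release and strand setting were not given in the sources used here. HTSeq's classes outside genes were left out of the totals: 2.63 to 5.05% of pairs in no gene, 4.81 to 5.16% ambiguous and 7.81 to 8.12% not unique. Symbols matched 42047 of 61552 identifiers. Exon lengths and overlaps came from GENCODE on GRCh38.

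Counts were compared in R 4.3.3 with edgeR 4.0.16 (TMM, filterByExpr, quasi-likelihood test, Benjamini-Hochberg adjustment over 17084 genes, threshold 0.05). The standard error is the log2 fold change over the square root of F. Alternatives were RLE factors, library size only, no filter, a filter at a mean of 1 CPM, limma-voom (limma 3.58.1), DESeq2 1.42.0, the replicate number as a block, a lowess length correction (span 0.3), thinning to the shallowest library and leaving out each library; adding EIF4EP2 counts was chosen after seeing the data. The edgeR test was tested on simulated counts.

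The genes and lists were chosen with earlier results of these data known. Named were all 10 genes, SYVN1, up to 4 genes per list and direction by smallest p, and the 3 genes most correlated with MKNK1, MKNK2 and PDCD4. MYC, CCND1 and MCL1 lie outside this rule and were named after their values were seen. Not all genes within it are printed, and some are not reported here. Permuting 3 against 3 libraries exactly allows no p below 0.10 and was left out.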

Additional observations from a re-analysis of the deposited data

Results flagged for a closer look

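Read pairs that fell in no annotated gene were not used in any comparison. They made up 3.97 ± 0.935% of pairs with VNLG-152R and 2.95 ± 0.286% in vehicle controls (SD, n = 3 each), and they are listed here because every treated library was above every control. The libraries stood at 3.52, 5.05 and 3.36% with VNLG-152R and 3.17, 2.63 and 3.05% in controls. The difference was not tested.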

How the results depend on the processing

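Of 151 refits of the 10 genes, 139 kept their direction and side of the threshold, 4 turned sign, 2 newly passed and 6 no longer passed. Left-out libraries moved MKNK1 between 0.015 and 0.060, MKNK2 between -0.096 and 0.036, EIF4E between -0.12 and 0.039, EIF4E2 between -0.052 (also -0.020) and 0.094, EIF4G1 between -0.21 and -0.021, EIF4G2 between -0.33 and -0.21, EIF4G3 between 0.17 and 0.32, EIF4EBP1 between -0.27 and -0.17, EIF4EBP2 between -0.16 and -0.064, and PDCD4 between 0.31 and 0.42. The sign changes were those of MKNK2, EIF4E and EIF4E2, none of which passed the test. EIF4G2 passed with DESeq2 (-0.27) and the length correction (-0.34), so that 2 of the 10 genes were called under each. Across genes, length and log2 fold change had a Spearman's rho of 0.22, and the length correction took EIF4E to -0.26 (adjusted p = 0.163 from edgeR), EIF4EBP2 to -0.20 and EIF4EBP1 to -0.15. The causes were not tested.

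With a replicate block PDCD4 kept 0.37 but did not pass (adjusted p = 0.113 from edgeR), 0 of the 10 genes were called, and the lists had 0 other MNK substrates and 2 eIF4E-sensitive mRNAs, as SPRY1 (adjusted p = 0.0893), ODC1 (0.0819) and BCL2L1 (0.144) did not pass. Libraries of the same number deviated from their group means with correlations of -0.19, -0.17 and -0.11, and those of different numbers with 0.012 to 0.15. Deviations from a mean of 3 libraries are tied to each other, so these values cannot tell whether the numbers pair the samples. Without a filter the calls were 1 other cap-complex gene, 2 kinases above MNK, 2 kinases and ligases of 4E-BP and PDCD4, and 7 eIF4E-sensitive mRNAs. DESeq2 called 1 other cap-complex gene, 1 eIF3 subunit and 8 eIF4E-sensitive mRNAs. With a library left out the calls were 0 to 1 of the 10 genes, 0 to 1 kinases above MNK, 0 to 1 kinases and ligases, 0 to 1 other MNK substrates and 1 to 6 eIF4E-sensitive mRNAs. Longest-transcript lengths gave an MKNK1 share of 32.2% with VNLG-152R and 31.1% in controls and an EIF4E share of 22.0% with VNLG-152R and 23.1% in controls. In controls they gave 55.9% for EIF4G1, 86.4% for EIF4EBP1 and a 4E-BP to EIF4E ratio of 13.1. Over all 17084 tested genes 642 were higher and 245 lower, against 310 and 87 under the block. DESeq2 called 917 and 537 of 14391 genes, and the fit without a filter 1056 and 483 of 32260.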
